A study of Mus musculus with 6 samples.

Results

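Matrix metalloproteinases, the related ADAM and ADAMTS proteases and their tissue inhibitors were followed in the mouse cornea, in wildtype animals and in animals carrying a heterozygous mutation of Pax6. Members were the protein-coding genes whose symbol begins with Mmp, Timp, Adamts, Adamtsl or Adam and a number, which gave 83 of the 55421 gene lines in each file: 22 matrix metalloproteinases (MMPs), 4 tissue inhibitors of metalloproteinases (TIMPs), 19 ADAMTS proteases, 5 ADAMTS-like proteins and 33 ADAMs. Corneas were taken at 20 weeks of age. The series has 3 RNA-seq libraries from mutant corneas (M1, M2 and M3) and 3 from wildtype corneas (W1, W2 and W3), which its design calls biological replicates. The labels name neither the Pax6 allele nor the strain, the sex or the number of animals behind a library. They give all libraries the same tissue and age, but the libraries differed in the cells they held, as given below. Gene counts were 16858005 to 21846406 per library. Pax6 itself, the eye transcription factor altered in the mutant, was lower in every mutant library, at 401 ± 49.1 CPM (read counts scaled to library size, SD, n = 3) against 790 ± 53.5 CPM (SD, n = 3), by -0.98 ± 0.14 (SE) on the log2 scale.

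MMPs are zinc enzymes that cut collagens, laminins and other matrix proteins. They are made as inactive precursors and are opened by proprotein convertases, plasmin or each other. TIMPs bind the active enzymes and block them, and TIMP3 also inhibits several ADAMs and ADAMTSs. ADAMTS enzymes are secreted proteases of proteoglycans, procollagens and microfibrils, their ADAMTS-like relatives lack the protease domain, and many ADAMs sit in the cell membrane and release growth factors, receptors and adhesion molecules from its surface. In the cornea these proteins are known for their part in wound closure, turnover of the epithelial basement membrane and stromal scarring.

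Of the 83 members, 44 passed the low-count filter and were tested. All 6 libraries stood above the filter's level of 0.556 CPM for 22 of them, and for 18 others all mutant libraries but only 1 or 2 wildtype libraries did, so that these passed with the help of the mutant group. The remaining 39 members were too low to test, and 13 of those had no count in any library. Among the tested members 7 were higher and 2 lower in mutant corneas by edgeR's quasi-likelihood test at an adjusted p of 0.05. Over all 15209 genes tested, 10.1% were called, 5.59% higher and 4.46% lower. Members called higher were Mmp2, Mmp15, Timp2, Adamts2, Adamtsl4, Adam8 and Adam28, and those called lower were Mmp28 and Adam15. Mutant and wildtype libraries did not overlap for 24 tested members, 21 with mutant above and 3 with mutant below. Of all 15209 tested genes 31.9% did not overlap, 2605 with mutant above and 2242 with mutant below. The median log2 fold change of the tested members was 1.24, beside 0.01 over all tested genes. As the filter admitted some members through their mutant libraries, neither this median nor the surplus with mutant above lends support to a general rise.

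**Figure D1:**
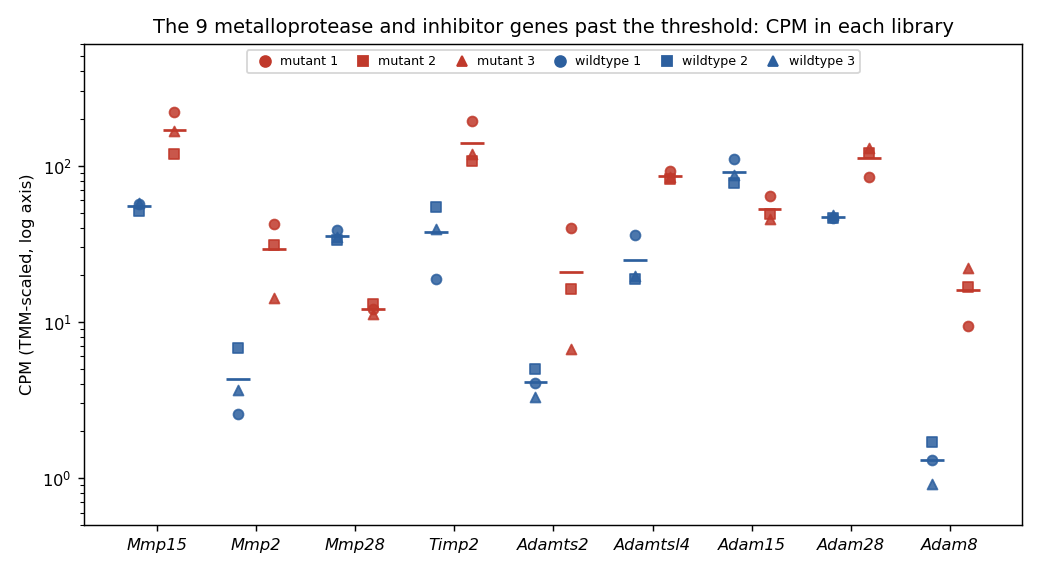
CPM, on a log axis, of the 9 called members in each wildtype (blue) and mutant (red) library, with bars at the group means and marker shapes for replicate numbers 1 to 3. For each of the 9 genes the groups do not overlap; Mmp28 and Adam15 are the genes with the mutant libraries below.

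The libraries were not alike in the tissue they held, and the values that touch the members are given first. Corneal epithelial markers, Krt12 among them, were abundant throughout, with a summed level of 37100 to 51100 CPM in wildtype and 18400 to 25000 CPM in mutant libraries. That sum rests mainly on Krt12, Krt5 and Aldh3a1, and the 6 markers did not move as a set. Krt12, Tkt and Upk1b were called lower, while Krt5 and Aldh3a1 were below in every mutant library but gave no call. Krt14 was called higher, at 1466 CPM in mutant and 366 CPM in wildtype corneas (means), with an edgeR adjusted p of 0.0019. The 12 markers of keratocytes and stroma summed to 406, 670 and 539 CPM in W1 to W3 and to 5220, 2230 and 1290 CPM in M1 to M3; 5 of the 12 were called higher, and 7 of the 12 were above in every mutant library. Thy1, whose groups overlapped, had no count in W1. The 9 leukocyte and macrophage markers summed to 50.4 to 72.0 CPM in wildtype and 163 to 203 CPM in mutant libraries, with 6 called higher and only Tyrobp and Fcer1g at 0 in a wildtype library. All 5 conjunctival and goblet cell markers were called higher, with sums of 6150 to 7550 CPM in mutant and 356 to 608 CPM in wildtype libraries; their part in the results below was not tested. The first principal component separated the genotypes, with the mutant libraries at -48.35 to -32.5. W1 lay farthest out on the wildtype side, at 64.4 against 27.1 for W2 and 33.5 for W3. W1 was low in markers of vessels (0.681 CPM against 20.9 to 80.6 CPM elsewhere) and of iris and pigment cells (9.82 CPM against 187 to 413 CPM elsewhere). W3 held 1050 CPM of the 3 retinal markers, where the other libraries held 8.79 to 44.7 CPM. In bulk corneas fewer cells of a type and less RNA per cell cannot be told apart. W1 was the lowest wildtype library for 28 of the 44 tested members (63.6%), against 42.3% of all tested genes. Without W1 the same numbers of members were called, 7 higher and 2 lower. Without M1, the mutant library with the most stromal RNA, 5 were higher and 2 lower, without M1 and W1 together 7 and 2, and without W3 5 and 1.

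Promoters of the MMP genes are shown because AP-1, the Fos and Jun transcription factor, is a known regulator of inducible MMPs. Entries for 52 of the 83 members were found in RefSeq's promoter set on GRCm38.p6, and the 250 bases before each start were searched for the AP-1 letters TGANTCA, which read alike on both strands apart from the middle base. Of 17 MMP genes with an entry, 7 held the letters in at least 1 entry (41.2%), against 7.82% of 27025 genes in the whole set. Counted by entry it was 7 of 20 (35%), against 6.75% of 32851. The 7 genes were Mmp3, Mmp7, Mmp10, Mmp12, Mmp13, Mmp1b and Mmp20, and they all lie in the run of 9 MMP genes on chromosome 9 between 7272514 and 7699585. None of the 8 MMP genes with an entry elsewhere held them, nor did any of the 7 called members with an entry, any TIMP or any ADAMTS. Of 17 ADAM genes 4 did. Mmp12 has 2 entries, and the letters lie only in the one at chr9:7347124-7347373, not in the one next to its annotated start. Among the 26 tested members with an entry 2 held the letters (7.69%), close to the share of the whole set. The 120 bases before the start are printed 5′ to 3′ with the AP-1 letters in capitals for 3 of the cluster genes whose counts came mainly or wholly from mutant libraries (Mmp3 at chr9:7445702-7445821, Mmp10 at chr9:7502222-7502341 and Mmp13 at chr9:7272394-7272513, plus strand) and for Mmp7 (chr9:7691970-7692089, plus strand), counted in wildtype libraries only. Adam8 (chr7:139992563-139992682, minus strand) and Adamtsl4 (chr3:95687918-95688037, minus strand), called higher, follow for comparison and hold no match.
Mmp3: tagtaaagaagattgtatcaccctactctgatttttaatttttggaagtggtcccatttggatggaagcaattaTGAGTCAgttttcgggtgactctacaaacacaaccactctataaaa
Mmp10: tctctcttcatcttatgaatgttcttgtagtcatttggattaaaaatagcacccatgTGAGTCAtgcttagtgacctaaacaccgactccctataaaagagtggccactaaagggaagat
Mmp13: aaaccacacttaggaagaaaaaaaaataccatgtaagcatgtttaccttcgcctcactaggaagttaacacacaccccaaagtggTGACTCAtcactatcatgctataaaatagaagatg
Mmp7: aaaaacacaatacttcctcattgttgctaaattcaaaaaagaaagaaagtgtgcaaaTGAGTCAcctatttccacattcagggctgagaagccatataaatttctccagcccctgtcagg
Adam8: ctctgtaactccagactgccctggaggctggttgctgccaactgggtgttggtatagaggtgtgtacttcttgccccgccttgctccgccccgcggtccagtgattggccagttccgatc
Adamtsl4: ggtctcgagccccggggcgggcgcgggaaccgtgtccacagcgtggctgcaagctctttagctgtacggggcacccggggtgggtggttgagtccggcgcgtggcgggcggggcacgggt
In the 4 MMP sequences the first base of the capitals stands 46 bases before the start in Mmp3, 63 in Mmp10, 35 in Mmp13 and 63 in Mmp7. A match describes these letters and is no evidence of binding.

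Among the 22 MMPs, 10 were tested, 2 were called higher and 1 lower (30%, beside 10.1% of all tested genes). Mmp15, a membrane-anchored MMP (MT2-MMP) of epithelia, stood at 56.6, 51.3 and 57.2 CPM in W1 to W3 and at 221, 118 and 166 CPM in M1 to M3. The wildtype libraries lay close together and every mutant library was above them. Mmp15 was 3.06-fold higher, 1.61 ± 0.22 (SE) on the log2 scale, with an edgeR adjusted p of 0.0034. It lies on chromosome 8 of GRCm38 from 95352268 to 95375080 on the plus strand, and its exons overlap those of no other gene in the annotation.

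Mmp28, the secreted MMP epilysin, known from the epidermis and from healing epithelium, moved the other way. Its level was 38.4, 33.3 and 34.8 CPM in the wildtype libraries and 12, 13.0 and 11.2 CPM in the mutant libraries. The groups were far apart with little spread in either. The decrease was -1.56 ± 0.15 (SE) on the log2 scale, 2.94-fold, with an edgeR adjusted p of 0.0010. On chromosome 11 the gene spans 83440768 to 83463071 (minus strand); 12% of its exon bases overlap the gene 1700020L24Rik on the opposite strand, which had 16 counts in M1, 5 in W1 and 0 in the other libraries. How the counting treated strand is not stated in the labels, so the counts of Mmp28 are uncertain to that extent.

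Mmp2, gelatinase A, a product of keratocytes and fibroblasts that cuts denatured collagen and type IV collagen, was at 2.55, 6.76 and 3.64 CPM in W1 to W3 and at 42.0, 30.9 and 14.1 CPM in M1 to M3. All mutant libraries were above all wildtype libraries, and M1 was highest and M3 lowest among the mutants. The rise was 2.75 ± 0.48 (SE) on the log2 scale, 6.71-fold, with an edgeR adjusted p of 0.011; without M1 and W1 together it was 2.10, with an edgeR adjusted p of 0.028. The order M1, M2, M3 was also that of the summed stromal markers (5220, 2230 and 1290 CPM); the part of these markers in the result was not tested.

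Mmp23, a type II membrane MMP, and the stromelysin Mmp3 had groups that did not overlap but were not called. Mmp23 stood at 0.284, 0.511 and 0.588 CPM in wildtype and 5.26, 2.94 and 1.12 CPM in mutant libraries, a difference of 2.73 ± 0.72 (SE) on the log2 scale with an edgeR adjusted p of 0.0503, just past the threshold. DESeq2 gave it an adjusted p of 0.0060. Mmp3 was at 0.340, 5.51 and 0.535 CPM in wildtype and 31.5, 37.0 and 5.72 CPM in mutant libraries. W2 thus reached nearly the level of M3, the lowest mutant library. The log2 difference of Mmp3 was 3.54 ± 1.06 (SE) with an edgeR adjusted p of 0.075, and without W2 it was 5.79 with an edgeR adjusted p of 0.021.

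The remaining tested MMPs were not called. Mmp14 (MT1-MMP), the membrane enzyme that activates the Mmp2 precursor, had the highest length-scaled level of the MMPs in wildtype corneas, 17.2 ± 3.72 CPM per kb of exons (SD, n = 3), and 13.4 ± 0.476 CPM per kb (SD, n = 3) in mutant corneas. Its groups overlapped, at a log2 difference of -0.35 ± 0.16 (SE) with an edgeR adjusted p of 0.24. Mmp19, a macrophage and stromal MMP, Mmp11 (stromelysin 3) and Mmp16 (MT3-MMP) were under 3 CPM in every library, at log2 differences of 2.29, 1.53 and 1.17 and edgeR adjusted p of 0.22, 0.29 and 0.50. Exons on the opposite strand overlap 28.3% of the Mmp19 exon bases, mainly those of Tmem198b, which had 95 to 191 counts per library against 0 to 51 for Mmp19, and 5.58% of those of Mmp11, so both are uncertain. Mmp9, gelatinase B of neutrophils, macrophages and migrating epithelium, had no count in M1, W1 or W2 and 15, 24 and 17 counts in M2, M3 and W3, so this gelatinase, often followed in corneal wounds, was scarcely detected. The log2 difference of Mmp9 was 1.06 ± 1.66 (SE).

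Several MMPs known as products of inflamed tissue had counts too low to test. Mmp25 (MT6-MMP, leukolysin, a neutrophil enzyme) had 6, 22 and 25 counts in M1 to M3 and 0, 0 and 2 in W1 to W3. Mmp12, macrophage elastase, had 0, 19 and 10 counts in mutant and 0, 0 and 5 in wildtype libraries. Mmp10 had 2, 10 and 0 counts and Mmp13, the main collagenase of mice, 8, 1 and 2 counts in mutant libraries, and neither had any count in wildtype libraries. With the wildtype group set to 3 counts in all, the limit that 0 allows, the ratio was 3.81-fold for Mmp10 and 3.50-fold for Mmp13. This holds for these libraries and for counting error in the wildtype group only. Error in the mutant counts was left out, so these ratios are not lower limits. The collagenase Mmp8 of neutrophils had 1 count in all. M2 and M3 were the mutant libraries with Mmp9, Mmp12 and most Mmp25 counts. They also had the higher sums of 7 neutrophil markers (29.9 and 18.1 CPM, against 3.92 CPM in M1 and 0.170 to 3.18 CPM in wildtype). Their sums rest mainly on S100a9. S100a8, S100a9, Csf3r and Cxcr2 were each highest in M2 and M3. Ly6g was counted in W3 only, Mpo in M1 but not in M2 or M3, and Elane in no library. W3 departed from the parallel, with 17 Mmp9 and 5 Mmp12 counts at a marker sum of 0.963 CPM. The part of neutrophils was not tested. Mmp24 had no count in mutant libraries and 0, 2 and 19 in W1 to W3, the last being the library with the retinal markers; 13.6% of its exon bases overlap a gene on the opposite strand.

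**Figure D2:**
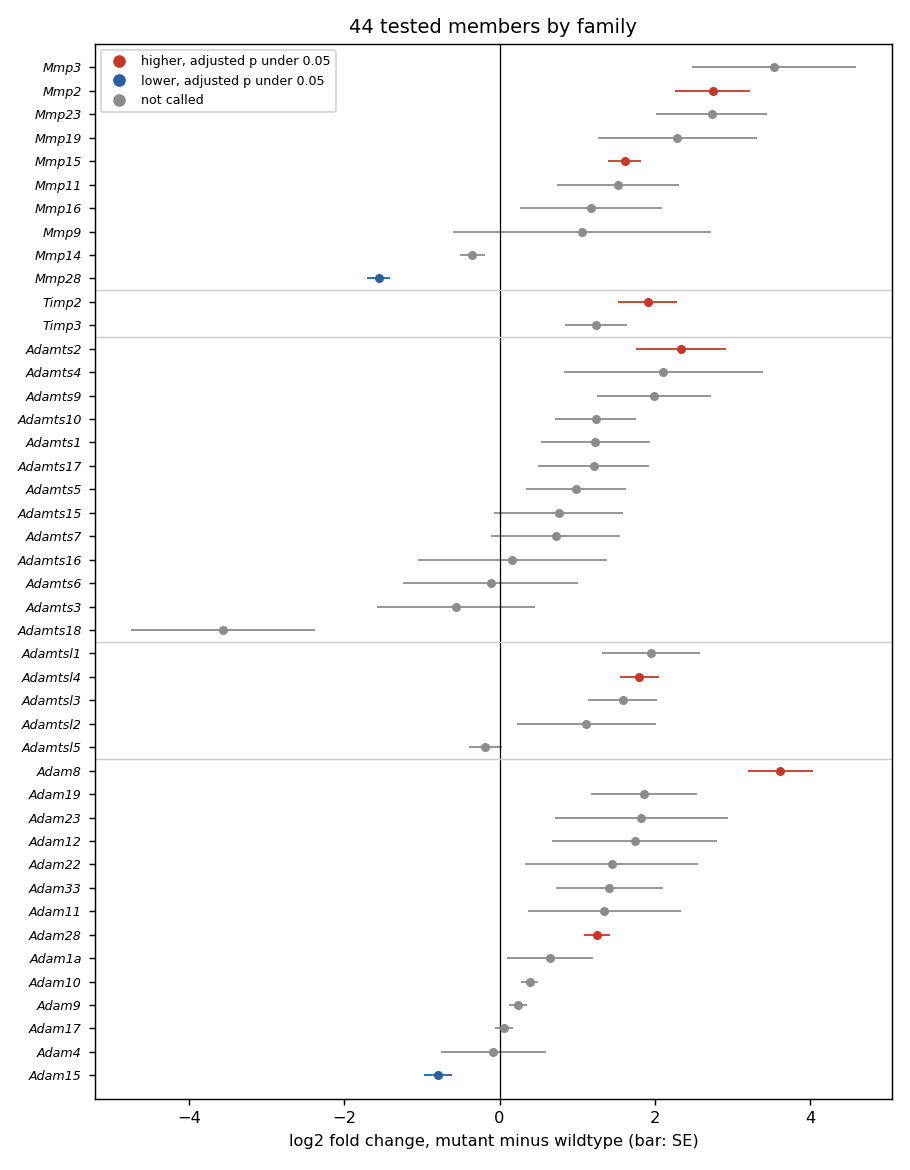
Log2 fold change, mutant minus wildtype, with its standard error for the 44 tested members, grouped by family and coloured by call. Of the 44 estimates 36 lie above 0, beside 7710 of all 15209 tested genes, while 9 members pass the threshold. As 18 members passed the filter with the help of the mutant group, the surplus above 0 lends no support to a general rise. Low genes carry wide bars.

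Of the 4 TIMPs, 2 were tested and 1 was called higher, beside 5.59% of all tested genes called higher. Timp2, which blocks most MMPs and also takes part in Mmp2 activation by Mmp14, was at 18.8, 54.1 and 39.0 CPM in W1 to W3 and at 193, 107 and 119 CPM in M1 to M3. All mutant libraries were above the wildtype range. The rise was 1.91 ± 0.38 (SE) on the log2 scale, 3.75-fold, with an edgeR adjusted p of 0.018. That call was lost without M1 (edgeR adjusted p of 0.065), M3 (0.057) or W3 (0.052), and without M1 and W1 together the log2 change was 1.27 with an edgeR adjusted p of 0.0047.

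Timp3, a matrix-bound inhibitor, was at 47.5, 147 and 93.4 CPM in wildtype and 292, 149 and 240 CPM in mutant libraries. The groups were separated by little, as W2 nearly met M2. The log2 difference was 1.24 ± 0.40 (SE) with an edgeR adjusted p of 0.092. Exons of Syn3 on the opposite strand overlap 21.3% of the Timp3 exon bases, and its counts are uncertain. Timp1, the inhibitor induced by inflammation, was too low to test, with 1, 29 and 22 counts in M1 to M3 and 0, 3 and 4 in W1 to W3, again low in M1. Timp4 had 1 count in all.

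On the length scale, Timp2 and Timp3 moved up the order of members between the genotypes. In wildtype corneas the 4 highest members were Adam10 (19.0 ± 0.690 CPM per kb, SD, n = 3), Mmp14, Adam15 (14.9 ± 2.80 CPM per kb) and Timp3 (11.8 ± 6.12 CPM per kb). In mutant corneas they were Timp2 (35.9 ± 11.97 CPM per kb), Mmp15 (31.2 ± 9.52 CPM per kb), Timp3 (27.9 ± 8.89 CPM per kb) and Adam10 (24.8 ± 1.09 CPM per kb). The spread of the first 3 in mutant corneas was larger than the distances between them. Summed over the family, MMPs stood at 40.0 ± 3.63 CPM per kb in wildtype and 73.6 ± 17.4 CPM per kb in mutant corneas, and TIMPs at 21.5 ± 10.7 and 64.8 ± 19.2 CPM per kb (SD, n = 3 each). Mmp15 alone made up 25.7% of the MMP sum in wildtype and 42.9% in mutant corneas.

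**Figure D3:**
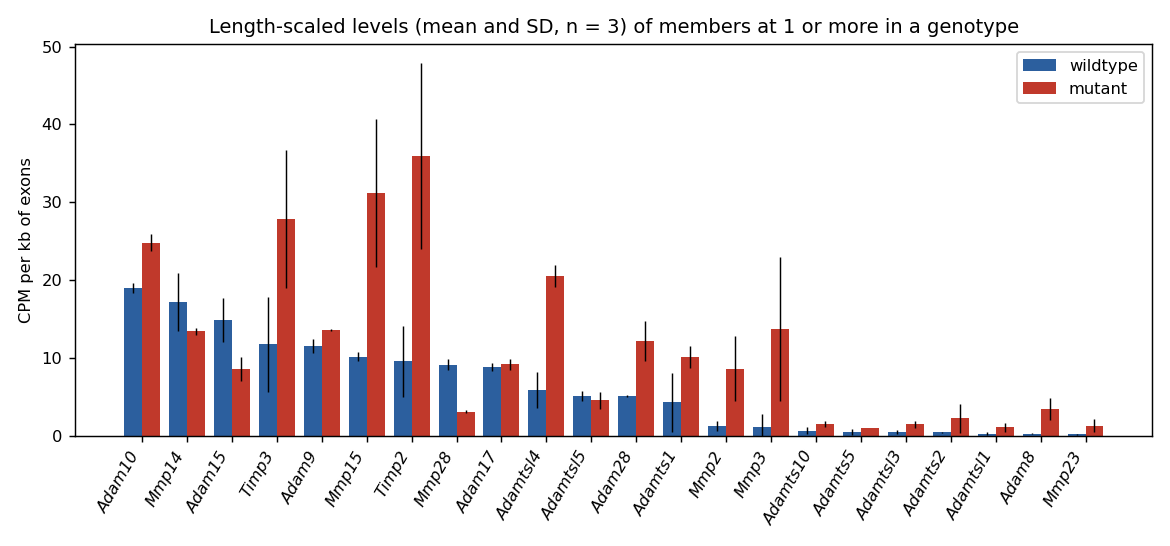
Mean CPM per kb of annotated exons with SD (n = 3) in wildtype and mutant corneas for the 22 members at 1 or more in either genotype, ordered by the wildtype level. Adam10 leads in wildtype, Timp2 and Mmp15 in mutant corneas, and Mmp28 and Adam15 are lower in the mutant.

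Of the 24 ADAMTS and ADAMTS-like members 18 were tested, 2 were called higher and 0 lower. That was 11.1%, close to the 10.1% of all tested genes. DESeq2 called 5 of them higher and 1 lower, beside 1325 and 1033 of all genes. At an unadjusted p under 0.05 by edgeR there were 7 of these 18, and 3612 of all 15209 genes. Adamtsl4, a microfibril-associated protein needed for lens suspension in people, was at 36.0, 18.7 and 19.6 CPM in wildtype and 92.7, 81.6 and 83.9 CPM in mutant libraries. The mutant values were close together and more than 2-fold above the highest wildtype library. It rose by 1.80 ± 0.25 (SE) on the log2 scale, 3.48-fold, with an edgeR adjusted p of 0.0042, and its minus-strand gene spans chromosome 3 from 95676201 to 95687917. W1, the library with the lowest sum of stromal markers, was the highest wildtype library for this gene. It was also the highest wildtype library for the stromal markers Kera, Angptl7 and Col1a1, but not for the others. The part of stromal cells in the result was not tested.

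Adamts2, the procollagen N-proteinase that trims fibrillar collagens before they assemble, was at 4.03, 4.996 and 3.32 CPM in wildtype and 39.6, 16.3 and 6.71 CPM in mutant libraries. The mutant values spread widely, in the order of the stromal marker sums, whose part in this result was not tested. The rise of Adamts2 was 2.34 ± 0.58 (SE) on the log2 scale with an edgeR adjusted p of 0.041. It was called by a narrow margin: without M1 the log2 change was 1.48 with an edgeR adjusted p of 0.12, and the edgeR adjusted p was 0.091 without M2, 0.059 without W1, 0.098 without W2 and 0.11 without W3.

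The other ADAMTS and ADAMTS-like members gave no call. Adamts1, a protease of versican and aggrecan and the highest ADAMTS by length, was at 10.2 ± 1.40 CPM per kb in mutant and 4.31 ± 3.75 CPM per kb in wildtype corneas (SD, n = 3 each), and W1 was far below the other wildtype libraries at 2.89 CPM against 42.7 and 23.0 CPM. Adamts9, Adamts10 and Adamts5 showed the same low W1, at 0.284, 1.82 and 0.908 CPM. Without W1 Adamts9, a versican protease, was called higher, by 1.46 on the log2 scale with an edgeR adjusted p of 0.0093, where all libraries gave 1.99 ± 0.74 (SE) and an edgeR adjusted p of 0.14. Exons on the opposite strand overlap 12% of the Adamts9 exon bases, so its counts are uncertain. Adamtsl3 and Adamtsl1 were above wildtype in every mutant library, at log2 differences of 1.59 ± 0.45 and 1.95 ± 0.63 (SE) and edgeR adjusted p of 0.061 and 0.096. Adamtsl2 and Adamtsl5 overlapped between groups, Adamtsl5 at 4.54 CPM per kb in mutant and 5.16 CPM per kb in wildtype corneas.

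Adamts18, named after its values were seen, had the largest decrease of the tested members and was not called. It was at 1.93, 4.43 and 6.79 CPM in W1 to W3 and at 0, 0.0555 and 0.990 CPM in M1 to M3. Its groups did not overlap, but the spread within each was wide, and the log2 difference of -3.56 ± 1.19 (SE) had an edgeR adjusted p of 0.11, and without M3 it was -6.94 with an edgeR adjusted p of 0.024. Of the ADAMTS genes too low to test, Adamts12 had 9, 11 and 17 counts in mutant and 0, 1 and 10 in wildtype libraries. Adamts14, Adamts8 and Adamts20 reached at most 15, 14 and 10 counts in a library.

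Of 33 ADAMs 14 were tested, with 2 called higher and 1 lower (21.4%, beside 10.1% of all tested genes). The other 19 were too low to test, 10 of them at 0 throughout. Adam5, Adam18 and Adam24, known from sperm, were among those at 0, and Adam2 and Adam3 had 3 counts and 1 count in all. Adam32 had 2, 1 and 5 counts in mutant and 10, 1 and 10 in wildtype libraries. Adam8, a sheddase of myeloid cells that also marks inflamed tissue, was at 1.31, 1.70 and 0.909 CPM in wildtype and 9.37, 16.7 and 22.1 CPM in mutant libraries. Every mutant library was several-fold above every wildtype library, with M1 lowest. Adam8 rose by 3.62 ± 0.42 (SE) on the log2 scale, 12.3-fold, with an edgeR adjusted p of 0.0019; in the alternative fits, libraries left out included, the change was 3.31 to 3.89. Of the 9 leukocyte markers 6 were also called higher, by 1.58 (Itgam) to 4.53 (Tyrobp) on the log2 scale, while Cd68 overlapped between groups at 0.13 and Adgre1 and Fcer1g gave no call; their part in the result was not tested. The gene spans 139978932 to 139992562 of chromosome 7 (minus strand), and 0.992% of its exon bases overlap a gene on the opposite strand.

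Adam28, a membrane ADAM known from lymphocytes and from epithelia, was at 46.2, 46.2 and 48.0 CPM in wildtype and 84.8, 120 and 130 CPM in mutant libraries. The wildtype libraries were nearly equal, and the mutant libraries stood above them with M1 lowest, as for Adam8. It rose by 1.25 ± 0.17 (SE) on the log2 scale, 2.38-fold, with an edgeR adjusted p of 0.0034. In wildtype corneas Adam28 stood at 5.09 CPM per kb. The leukocyte and macrophage markers ranged there from 0.0392 CPM per kb for the pan-leukocyte gene Ptprc to 10.05 CPM per kb for Cd68. Itgam and Cd14 were also above Adam28, and the other markers were below it. The part of leukocytes in the rise was not tested.

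Adam15, an ADAM of epithelial and endothelial cells with a known link to cell adhesion, was lower. It was at 110.5, 77.0 and 87.1 CPM in wildtype and 63.9, 48.8 and 45.8 CPM in mutant libraries. The gap between the lowest wildtype and the highest mutant library was smaller than the range within either group. The decrease was -0.79 ± 0.18 (SE) on the log2 scale, 1.73-fold, with an edgeR adjusted p of 0.031, and the call was lost without M2 (edgeR adjusted p of 0.12), M3 (0.12) or W3 (0.055). A gene on the opposite strand, 4731419I09Rik, overlaps 20.6% of the Adam15 exon bases, which makes its counts uncertain, though that gene itself averaged 0.487 CPM in wildtype and 0.251 CPM in mutant corneas.

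The general sheddases were abundant and differed little. Adam10, which releases Notch and cadherin ectodomains, was at 90.3, 97.0 and 92.4 CPM in wildtype and 116, 125 and 125 CPM in mutant libraries. These groups were narrow and separate, and the log2 difference of 0.39 ± 0.10 (SE) had an edgeR adjusted p of 0.055, while DESeq2 gave 0.023. Adam17, the enzyme that sheds tumour necrosis factor and EGF receptor ligands, had 61.0 to 70.8 CPM in mutant and 60.1 to 67.0 CPM in wildtype libraries, a log2 difference of 0.06 ± 0.12 (SE). Adam9 was at 44.1 to 51.4 CPM in wildtype and 55.4 to 56.2 CPM in mutant libraries, a log2 difference of 0.24 ± 0.12 (SE) with an edgeR adjusted p of 0.26. Adam19, an ADAM of mesenchyme, had a log2 difference of 1.87 ± 0.68 (SE) with an edgeR adjusted p of 0.14, and W1 was its lowest library at 0.397 CPM. Opposite-strand exons overlap 10.1% of the Adam19 exon bases, so its counts are uncertain.

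**Figure D4:**
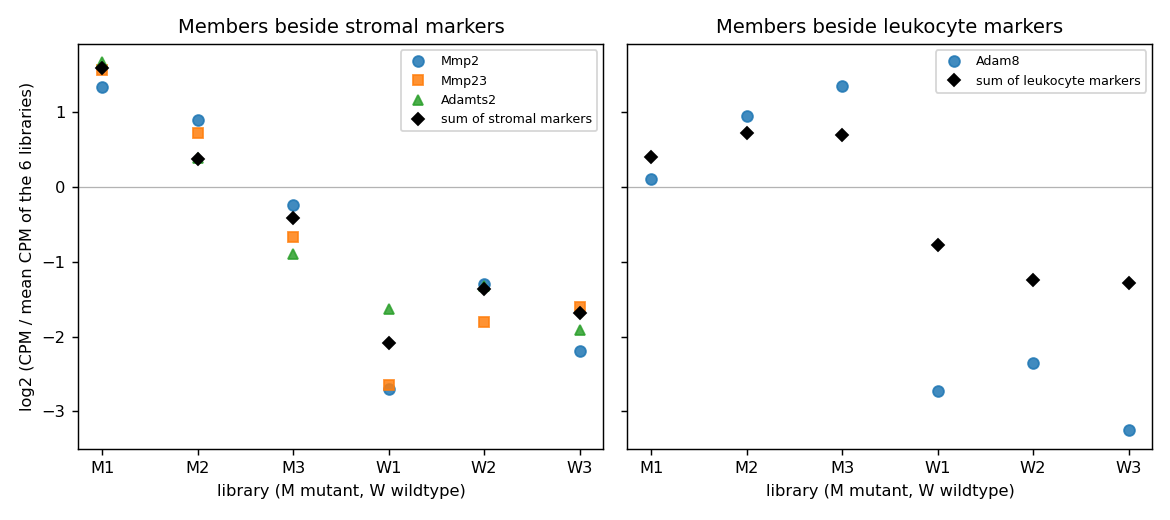
Log2 of the CPM in each library over the mean CPM of the 6 libraries, for Mmp2, Mmp23 and Adamts2 beside the summed markers of keratocytes and stroma (left) and for Adam8 beside the summed leukocyte and macrophage markers (right). On the left, for 3 genes chosen for this order, M1 is highest and M3 lowest of the mutant libraries, as for the marker sum, which rests mainly on Col1a1 and Col1a2; on the right M1 is the lowest mutant library for the gene and the sum, which rests mainly on Itgam and Cd14, while Csf1r, Adgre1, Laptm5 and Tyrobp were highest in M1.

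The order M1 over M2 over M3 was found in 12 of the 44 tested members (27.3%) and in 17.4% of all tested genes, and the stromal markers Ptgds, Pdgfra, Vim and Thy1 did not follow it. Of the leukocyte markers, Itgam shares 68.7% of its exon bases with another gene, so its counts are uncertain.

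Genes that act on these proteases, or that they act on, were read from 5 lists. The counts below stand beside 10.1% of all 15209 tested genes called, 5.59% higher and 4.46% lower. Of 16 genes of the plasminogen system and the proprotein convertases 13 were tested, and 1 was called higher and 1 lower. Plau, the urokinase that makes plasmin and so opens MMP precursors, fell from 10.3 ± 0.608 CPM to 3.96 ± 0.943 CPM (SD, n = 3 each), by -1.38 ± 0.29 (SE) on the log2 scale with an edgeR adjusted p of 0.021; that call was lost without M1, M3, W2 or W3 (edgeR adjusted p of 0.052 to 0.092). Serpinb2, an inhibitor of urokinase, rose from 0.0757 ± 0.131 CPM to 5.96 ± 3.41 CPM (SD, n = 3 each), with an edgeR adjusted p of 0.011, or 0.067 without M3; it shares exon bases with Serpinb10, so its counts are uncertain. Furin, the convertase that opens membrane-type MMPs and ADAMs, was at 150 ± 9.25 CPM in mutant and 129 ± 30.5 CPM in wildtype corneas (SD, n = 3 each) and was not called; without W1 it was, at a log2 change of 0.42 and an edgeR adjusted p of 0.036.

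Besides the TIMPs, the list of other inhibitors, inducers and partners held 21 tested genes, of which 4 were called higher and 3 lower. A2m, the alpha-2-macroglobulin that traps proteases of all classes, rose from 37.6 ± 12.1 CPM to 184 ± 85.9 CPM (SD, n = 3 each), by 2.29 ± 0.37 (SE) on the log2 scale with an edgeR adjusted p of 0.0078. Pcolce, an enhancer of procollagen C-proteinase, Rhbdf2 (iRhom2), which carries Adam17 to the cell surface, and Lcn2, a lipocalin that binds Mmp9 in people, rose by 0.88 ± 0.17, 0.80 ± 0.17 and 3.70 ± 0.84 (SE) on the log2 scale. The tetraspanins Tspan15 and Tspan5, partners that direct Adam10, fell by 1.34 ± 0.31 and 0.50 ± 0.13 (SE), and Cd44, a docking site for Mmp9 and a substrate of ADAMs, by 0.93 ± 0.21 (SE). Calls of Pcolce, Rhbdf2, Lcn2, Tspan15, Tspan5 and Cd44 were each lost with at least 1 single library left out (highest edgeR adjusted p 0.061, 0.084, 0.11, 0.13, 0.16 and 0.12), whereas that of A2m was not.

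Of 24 tested matrix substrates 8 were called higher and 3 lower, with a median log2 fold change of 1.59 beside 0.01 over all tested genes. Some of them, such as Vcan and Comp, passed the filter with W1 near 0, so this median lends no support either. The substrates that fell belong to the epithelial anchoring zone: Col17a1 by 1.56 ± 0.17, Col7a1 by 1.06 ± 0.15 and Lama3 by 0.79 ± 0.18 (SE) on the log2 scale. Tnc, the wound matrix protein tenascin C, rose by 3.39 ± 0.32 (SE) with an edgeR adjusted p of 0.00092. The others called higher were Bgn, Col4a1, Col4a2, Col1a1, Col1a2, Col5a1 and Dcn, of which Col1a1, Col1a2, Col5a1 and Dcn are also counted among the stromal markers above. Of these 7 only Bgn kept its call whichever library was left out; the others reached an edgeR adjusted p of 0.057 (Col4a1), 0.16 (Col4a2), 0.088 (Col1a1), 0.067 (Col1a2), 0.10 (Col5a1) and 0.10 (Dcn). Versican (Vcan), the substrate of Adamts1, Adamts5 and Adamts9, was at 18.9 ± 10.9 CPM in mutant and 3.99 ± 3.84 CPM in wildtype corneas (SD, n = 3 each) and was not called (edgeR adjusted p of 0.15). The call of Lama3 was lost without M2 or M3 (edgeR adjusted p of 0.12 and 0.13).

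Of 29 tested cell-surface substrates of ADAMs 2 were called higher and 5 lower, at a median log2 fold change of 0.06. Hbegf, the EGF-family ligand shed by ADAMs after epithelial injury, fell from 113 ± 10.1 CPM to 49.9 ± 9.30 CPM (SD, n = 3 each), by 1.18 ± 0.16 (SE) on the log2 scale with an edgeR adjusted p of 0.0038. Notch3 fell by 1.12 ± 0.16 and Efnb1 by 1.02 ± 0.18 (SE); Cd44 and Epgn were the others called lower, and Epgn had an edgeR adjusted p of 0.044, or up to 0.17 with M3, W2 or W3 left out. Ephb2, an ephrin receptor cut by ADAM10, rose from 14.5 ± 1.36 CPM to 53.9 ± 1.005 CPM (SD, n = 3 each), by 1.89 ± 0.14 (SE) with an edgeR adjusted p of 0.00057, and the chemokine Cxcl16 was also higher. The calls of Efnb1 and Cxcl16 were lost with a single library left out (highest edgeR adjusted p 0.057 and 0.13). Zmynd15 on the opposite strand overlaps 18.3% of the Cxcl16 exon bases, so its counts are uncertain.

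Of 18 tested transcription factors known for MMP promoters, Runx1 was called higher and Fos and Tfap2a lower (16.7%, beside 10.1% of all tested genes). The groups did not overlap for 12, 6 with mutant above and 6 below, where 31.9% of all tested genes did not overlap. Fos, a partner in the AP-1 dimer, fell from 53.3 ± 19.3 CPM to 20.0 ± 2.17 CPM (SD, n = 3 each), by 1.41 ± 0.27 (SE) on the log2 scale with an edgeR adjusted p of 0.015, although each call of the 3 factors was lost with a single library left out (edgeR adjusted p of up to 0.077 for Fos, 0.084 for Tfap2a and 0.080 for Runx1). Jun was at 171 ± 6.03 CPM in mutant and 231 ± 23.1 CPM in wildtype corneas (SD, n = 3 each) with an edgeR adjusted p of 0.055. It was called lower in 4 of 14 alternative fits, among them that without W1. Nfkb1, a subunit of NF-kB, was at 151 ± 18.6 CPM in mutant and 97.5 ± 19.4 CPM in wildtype corneas (SD, n = 3 each), a log2 difference of 0.63 ± 0.17 (SE) with an edgeR adjusted p of 0.053, and it was called in 7 of 14 alternative fits, among them that without W1 (0.80, edgeR adjusted p of 0.0065). Etv4, an ETS factor, was at 0.804 ± 0.271 and 3.44 ± 1.28 CPM, with an edgeR adjusted p of 0.052, and was called lower in 3 of 14 alternative fits. Exons on the opposite strand overlap 14.6% of the Tfap2a exon bases, so the counts of Tfap2a are uncertain.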

How the data were processed

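RNA-seq counts of 3 mutant and 3 wildtype mouse corneas were analysed. The deposited files hold raw counts per Ensembl gene, 1 file per library; the submitters' processing notes list GRCm38 and the tools HTSeq, HISAT2, Trim Galore, SAMtools and edgeR, without versions, and no source used here gives the strand setting. Summary lines that name no gene held 50.3% to 55.7% of each file's total and were left out. Symbols, exons and lengths came from GENCODE M21 on the same build (55240 of 55421 IDs matched).

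Genes were filtered with filterByExpr (minimum count 10, total 15), scaled by TMM and tested with edgeR 4.0.16 (R 4.3.3), quasi-likelihood, genotype as the only term, Benjamini-Hochberg over 15209 genes. CPM uses TMM-scaled totals; CPM per kb divides by merged exon length. SE is the log2 change over the root of F. A count of 0 over a group allows 3 counts, 0.0530 CPM in mutant and 0.0556 CPM in wildtype, counting error only.

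The members and lists were chosen with earlier results of these data known. By rule, the text names all called members, tested MMPs and TIMPs, the 4 highest uncalled members per other family, untested members with 10 counts in a library, and up to 6 genes per list with any called gene that moved against the rest. Adamts18, Furin, Vcan, Epgn, Ptprc and 4 collagen or proteoglycan genes were named in addition, after their values were seen, as were the untested Mmp7, Mmp8, Mmp13, Mmp1b, Mmp20, Timp4, Adam2, Adam3, Adam5, Adam18 and Adam24. DESeq2 1.42.0 and limma 3.58.1 served in alternatives. Alternatives were RLE or no composition factors, DESeq2, limma-voom with quality weights, no filter or 1 CPM required in 3 libraries, leaving out structural and mitochondrial RNA, an adjusted p of 0.01 and each library left out; leaving out M1 and W1 together was added after seeing the data. Tested on simulated data, the fit missed many true differences and gave somewhat more false calls than its threshold allows. Protein sequences were not analysed here.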

Additional observations from a re-analysis of the deposited data

How the results depend on the processing

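Mmp15, Mmp2, Mmp28, Adamtsl4, Adam8 and Adam28 kept their direction and call in all 14 alternative fits. Timp2, Adamts2 and Adam15 each lost their call with some libraries left out, as given above, and Adamts2 also with limma-voom (adjusted p of 0.20). DESeq2 called 14 members higher (4 MMPs, 5 ADAMTS or ADAMTS-like, 4 ADAMs) and 1325 genes higher and 1033 lower in all; the fit without a low-count filter called 16 members higher (4 MMPs, 2 TIMPs, 7 ADAMTS or ADAMTS-like), and 1588 and 1137 genes. Both, and limma-voom, called 1 ADAMTS lower. At an adjusted p of 0.01, 4 members were higher (1 MMP, 0 TIMPs, 1 ADAMTS-like) and 1 lower (0 ADAMs), of 307 and 261 genes. With 1 library left out, counts ranged from 5 to 8 members higher and 1 to 2 lower, 0 to 1 TIMPs higher, 1 to 2 ADAMTS or ADAMTS-like higher and 0 to 1 lower, 0 to 1 ADAMs lower, and over all genes 340 (without M3) to 1227 (without W1) higher and 271 (without M3) to 847 (without W1) lower. Among the genes refitted one by one (29 of the 44 tested members, Adamts18, and the list genes named above), Adam17 alone changed direction in a fit, at -0.002 without M3; it was 0.116 without M1 and 0.146 without M1 and W1. The causes were not tested. No paired analysis was possible because the labels give the groups no shared replicate numbers; the numbers 1 to 3 used here only name libraries in deposition order. Libraries numbering 3 per group limit what can be called, and the 39 members under the filter were not tested.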
